A study of Mus musculus with 18 samples.

Results

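The WNT family described here comprised the secreted WNT ligands, their Frizzled receptors and LRP co-receptors, the secreted inhibitors of the pathway and the WISP matricellular proteins. Members were taken by gene symbol (Wnt, Fzd, Sfrp, Dkk and Wisp genes with their numbers, plus Frzb, Wif1, Lrp5 and Lrp6), which gave 44 of the 24419 symbols in the table. Of these, 23 had 1 or more mice with an FPKM of 1 or above and were tested, and 21 stayed below 1 in every mouse. FPKM is a count of fragments corrected for transcript length and library depth, so that levels can be compared between genes. The mice were male C57BL/6 animals of 8 weeks, anesthetized with sodium pentobarbital, in which acute myocardial infarction (AMI) was induced by tying off the proximal left anterior descending coronary artery. Infarcted left ventricle came from groups of 3 mice killed 10 min, 1 h, 6 h, 24 h or 72 h later. A further 3 mice, labelled as control and described in the study as sham, carry no sampling time in the labels. This single group served as control for every time, so AMI and time since surgery and anesthesia cannot be told apart in the comparisons with it. The time course was meant to follow the molecular events of the early hours and days of AMI, so each time was compared with control, 24 h with 6 h and 72 h with 24 h. No label says that tissue of several mice was pooled, and p-values measure the spread between these 3 mice a group.

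WNT ligands are lipid-modified proteins that are released by one cell and bound by Frizzled receptors on the same or neighbouring cells. With the co-receptors LRP5 and LRP6 they stabilise beta-catenin, which enters the nucleus and acts with TCF/LEF factors on target genes, whereas other ligands act through Frizzled without beta-catenin on cell shape and movement. Secreted Frizzled-related proteins and WIF1 bind the ligands outside the cell, and classical Dickkopf proteins bind the LRP co-receptors. In the adult heart the pathway is largely quiet, and it is known to be engaged again in the scar-forming tissue after infarction.

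All 18 libraries showed the cardiomyocyte markers of heart muscle, with a summed FPKM of 8 genes of 55765 to 59296 in control and 20429 to 25375 at 72 h. The table holds FPKM and no counts, so depth is known only relative to the first control mouse, at 0.814 to 1.32, and only the spread between mice tells how precise a value is. A pair of libraries stood apart. The first 6 h mouse carried atrial muscle genes that the others lacked (a list written after the values had been seen), at 18.7 FPKM of Myl7 against at most 0.490 in the other 17 mice, and 63.0 of Myl4 against at most 2.89. The third 24 h mouse stood apart in neutrophil markers, with a summed FPKM of 968 over 6 genes against 42.9 in the lowest of its group, and the first 6 h mouse had 1002 against 117. Results at these times are given with and without these mice where they differ in call.

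In the first hour no member of the family passed the test, whereas by 72 h most of the measured members had moved. "Called" means an adjusted p under 0.05 over all genes tested in a comparison. At 10 min 0 of 23 members were higher and 0 lower, against 0.248% and 0.0978% of all genes tested, with 3 and 0 members at an unadjusted p under 0.05. At 1 h the counts were also 0 and 0, against 0.669% and 0.0526% of all genes, with 2 and 0 members at an unadjusted p under 0.05. By 6 h 2 members were called higher and 1 lower, while 11.6% and 16.8% of all genes were called. Some 24 h after ligation 4 were higher and 2 lower, beside 26.2% and 11.4% of all genes. At 72 h 14 were higher and 4 lower, beside 53.1% and 24.2% of all genes, so the share of members that rose, 60.9%, lay near that of all genes. The size of the changes was read beside the same background: the median log2 difference at 72 h was 0.50 over the members and 0.29 over all genes. Wnt4 and Wnt9b passed the filter on low levels only through 72 h mice (3 and 1 of them), where they were highest, so that their rise is no support for a count.

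**Figure D1:**
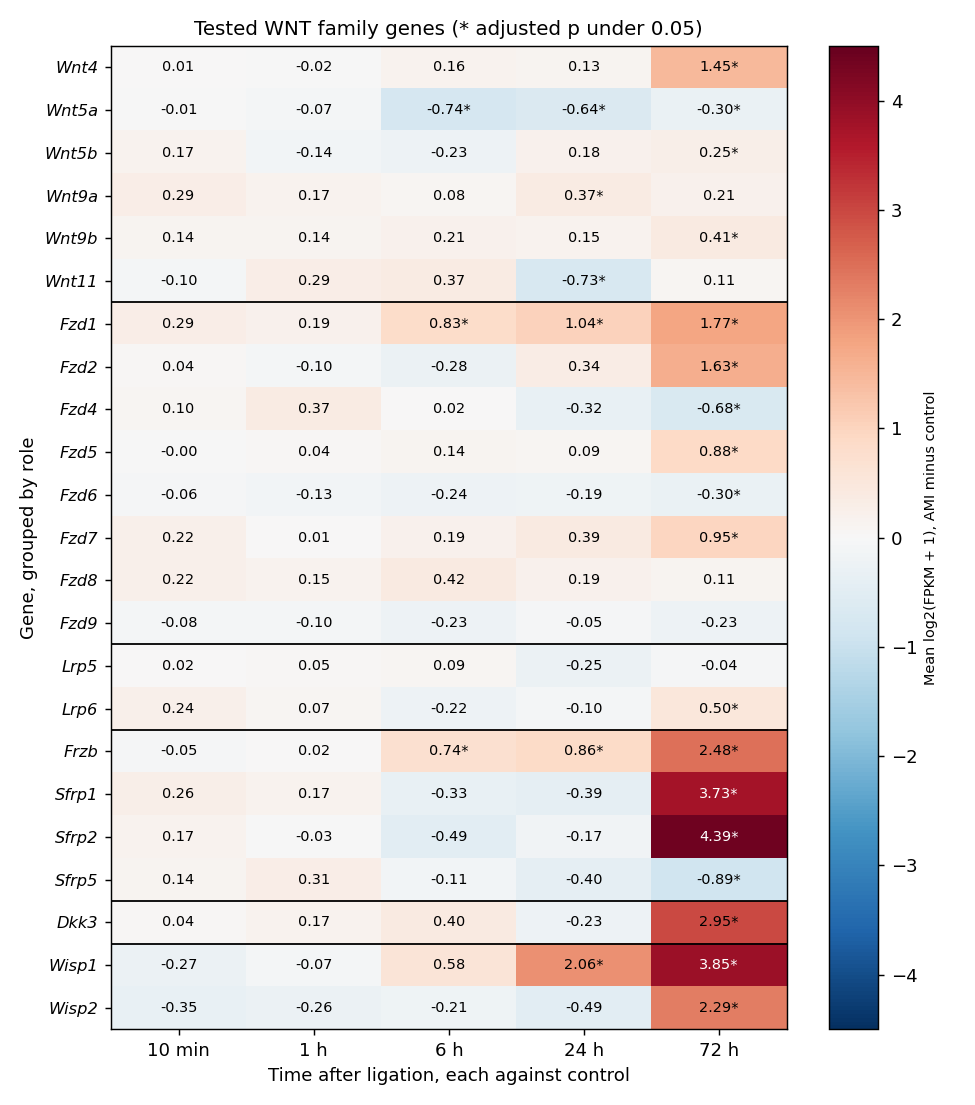
Differences in mean log2(FPKM + 1) between AMI and control mice for the 23 tested members (rows, grouped by role, from ligands at the top to WISP genes at the bottom) at 5 times (columns), in red where AMI was higher and in blue where it was lower, with an asterisk where the adjusted p was under 0.05. Strong colours stand in the 72 h column, led by Sfrp2 at 4.39, Wisp1 at 3.85 and Sfrp1 at 3.73, while the small rises of Wnt5b and Wnt9b at 72 h turned into falls under quantile normalization.

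Promoter sequences from RefSeq (build GRCm38.p6) were found for 28 of the 44 members. The 250 bases before the annotated start are shown for 4 members with different time courses: Sfrp2, the member that rose most, Fzd1, which was already higher at 6 h, Sfrp5, which fell, and Wnt11, which was low at 24 h. They lie at chr3:83766071-83766320 on the plus strand (Sfrp2), chr5:4758217-4758466 on the minus strand (Fzd1), chr19:42202253-42202502 on the minus strand (Sfrp5) and chr7:98834862-98835111 on the plus strand (Wnt11, the first of its RefSeq starts in the table). Capitals mark the core of the TCF/LEF motif, searched as CTTTGA and, on the other strand, TCAAAG.
Sfrp2: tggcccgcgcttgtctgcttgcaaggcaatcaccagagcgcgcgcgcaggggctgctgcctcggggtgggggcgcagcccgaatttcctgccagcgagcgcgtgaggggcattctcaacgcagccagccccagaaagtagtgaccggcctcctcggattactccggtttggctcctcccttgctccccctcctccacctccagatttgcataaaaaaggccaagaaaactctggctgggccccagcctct
Fzd1: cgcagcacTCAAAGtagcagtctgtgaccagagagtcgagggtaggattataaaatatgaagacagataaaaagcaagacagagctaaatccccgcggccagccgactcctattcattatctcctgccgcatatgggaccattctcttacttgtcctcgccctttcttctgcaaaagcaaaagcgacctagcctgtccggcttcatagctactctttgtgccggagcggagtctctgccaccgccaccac
Sfrp5: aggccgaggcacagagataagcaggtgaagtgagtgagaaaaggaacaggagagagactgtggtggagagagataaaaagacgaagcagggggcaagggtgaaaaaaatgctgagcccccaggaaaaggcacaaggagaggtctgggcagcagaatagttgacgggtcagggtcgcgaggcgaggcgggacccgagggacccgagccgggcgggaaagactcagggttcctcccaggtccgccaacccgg
Wnt11: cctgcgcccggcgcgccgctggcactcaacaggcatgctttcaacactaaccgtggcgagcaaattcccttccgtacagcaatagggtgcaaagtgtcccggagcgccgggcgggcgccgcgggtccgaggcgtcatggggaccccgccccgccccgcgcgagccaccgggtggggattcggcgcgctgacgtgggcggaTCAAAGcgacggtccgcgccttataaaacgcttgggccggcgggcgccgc
Fzd1 held the letters 242 bases and Wnt11 50 bases before the start, counted from the first letter of the match, and the Sfrp2 and Sfrp5 windows held no match. The 28 members have 31 promoter windows in the table, of which 5 held a match (1 each of Dkk1, Frzb, Fzd1, Wnt5b and Wnt11), and 13.8% of 32841 promoters of the same length did. The matching windows of Dkk1, Frzb and Wnt5b lie with 169, 229 and 250 of their 250 bases inside the annotated gene. A member that rose at 72 h (Fzd1) held a match and another (Sfrp2) did not, and a match describes letters, not a site.

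Among secreted Frizzled-related proteins Sfrp1, Sfrp2 and Frzb rose at 72 h and Sfrp5 fell. Sfrp2, a secreted binder of WNT ligands studied in cardiac fibrosis, stood at 1.61, 1.38 and 2.61 FPKM in the control mice and at 46.9, 51.2 and 81.1 at 72 h. All 72 h mice lay far above every other mouse, of which the highest was at 2.69. The mean rose from 1.87 ± 0.65 to 59.7 ± 18.6 FPKM (SD, n = 3), 32.0-fold, with a log2 difference of 4.39 ± 0.22 (SE, limma adjusted p = 3.76e-07). Means at 6 h (1.02 FPKM) and 24 h (1.62) were not called. The Sfrp2 gene lies at chr3:83766321-83774316 of mm10.

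Sfrp1, a close relative, had the highest mean FPKM in control of the secreted inhibitors among the 44 members. It was at 7.33, 7.66 and 10.9 FPKM in the control mice, and at 109, 135 and 133 at 72 h. In the 24 h mice it was 7.16, 6.87 and 4.86, so the rise fell entirely between 24 and 72 h in these samples. The mean went from 8.61 ± 1.95 to 126 ± 14.3 FPKM, 14.6-fold, with a log2 difference of 3.73 ± 0.14 (limma adjusted p = 9.19e-08). At 72 h Sfrp1 had the highest FPKM of the 44 members. Its gene is at chr8:23411502-23449632.

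Frzb, also called Sfrp3, rose earlier. It was at 1.43, 0.731 and 1.33 FPKM in control and at 2.55, 2.42 and 2.75 in the 6 h mice. The 24 h mice had 2.14, 2.83 and 3.88 FPKM and those of 72 h 10.1, 12.7 and 10.1. Each of these AMI groups lay above all control mice. The log2 difference from control was 0.74 ± 0.14 at 6 h (limma adjusted p = 0.0103), 0.86 ± 0.20 at 24 h (adjusted p = 0.0184) and 2.48 ± 0.15 at 72 h (adjusted p = 1.01e-06), and the mean at 72 h was 9.42 times that of control. Without the first 6 h mouse the difference at 6 h was 0.74 (adjusted p = 0.0222), and the call at 24 h was lost when any 1 control mouse was left out, with an adjusted p of up to 0.0652. Frzb lies at chr2:80411970-80447625.

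Sfrp5 went the other way. It ranged from 0.951 to 2.20 FPKM in control and from 0.239 to 0.585 at 72 h, with no overlap, and its log2 difference was -0.89 ± 0.18 (limma adjusted p = 0.0018). Sfrp4 stayed below the filter, with a highest value of 0.863 FPKM in a 72 h mouse. Over the 5 genes of this group the summed FPKM was 11.4 to 16.4 in control, 10.4 to 13.0 at 24 h and 167 to 224 at 72 h. Between 24 and 72 h Sfrp1, Sfrp2 and Frzb rose (log2 differences 4.13, 4.56 and 1.62) and Sfrp5 fell by 0.49 on the log2 scale, a call lost under several settings.

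Among the Dickkopf genes Dkk3 was the one tested. Dkk3 is the divergent member of that family and is not a classical ligand of LRP6. Its level was 1.33, 0.684 and 1.40 FPKM in control and 15.3, 15.8 and 15.1 at 72 h, so all 72 h mice stood well above control. The mean rose 13.5-fold, by 2.95 ± 0.13 on the log2 scale (limma adjusted p = 2.2e-07). At 6 h the mice read 7.73, 0.563 and 0.576 FPKM. The high value was that of the first 6 h mouse, which also carried atrial muscle genes, with 12.5 FPKM of Sln, 2.48 of Bmp10 and 4.77 of Mybphl beside at most 0.132, 0 and 0.290 in the other 17 mice, and the part of that tissue in the Dkk3 value was not tested. With that mouse the log2 difference of Dkk3 at 6 h was 0.40 (adjusted p = 0.652), and without it -0.43 (adjusted p = 0.11). Dkk3 lies at chr7:112116017-112159057.

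**Figure D2:**
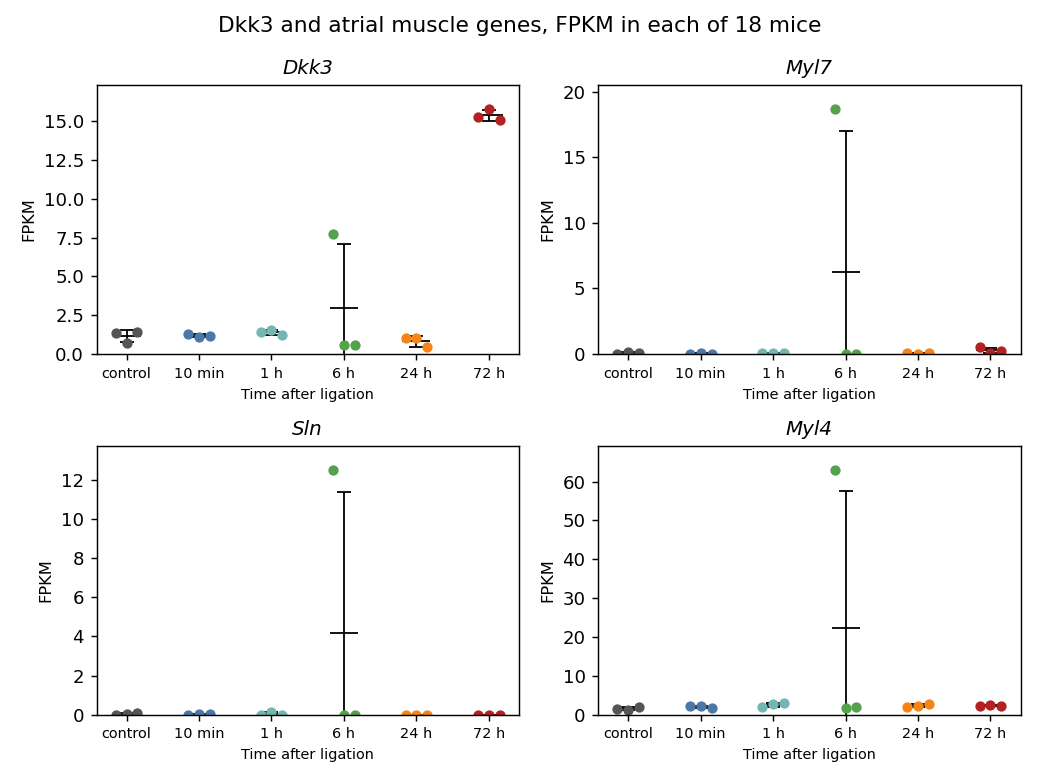
FPKM (vertical axis) of Dkk3 and the atrial muscle genes Myl7, Sln and Myl4 in each of 18 mice by time (horizontal axis), with black bars for the mean ± SD of 3 mice, drawn from 0 up. The first 6 h mouse stands alone in all 4 panels, at 7.73, 18.7, 12.5 and 63.0 FPKM, whereas the 72 h mice were high in Dkk3 and not in the atrial genes.

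The other secreted inhibitors were low. Dkk2, a classical inhibitor, was between 0 and 0.114 FPKM up to 24 h and reached 0.798, 0.954 and 0.734 in the 72 h mice, just under the filter of 1 FPKM. Dkk1 reached at most 0.0197 FPKM, and Dkk4 was listed at 0 in all 18 mice. Wif1 ranged from 0.112 to 0.620 FPKM, with a mean of 0.389 in control and 0.171 at 72 h. These genes were not tested in the main fit, and a fit without a filter is given in the closing section.

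WISP genes encode matricellular CCN proteins, of which WISP1 (CCN4) was first described as a target of WNT1. Wisp1 climbed over several times. It stood at 1.65, 0.887 and 1.28 FPKM in control and at 3.28, 1.61 and 2.43 in the 6 h mice. The 24 h mice had 6.96, 8.33 and 10.2 FPKM, and those of 72 h 26.8, 36.2 and 32.0. Of the 6 h mice 1 lay within the control range, and the 24 h and 72 h groups lay above all earlier mice. Its log2 difference from control was 0.58 at 6 h, which was not called (limma adjusted p = 0.068) but was under the replicate block (0.0207), in a fit of all 18 mice (0.0215) and without the second 6 h mouse (0.025). It was 2.06 ± 0.18 at 24 h (adjusted p = 0.00152) and 3.85 ± 0.15 at 72 h (adjusted p = 8.86e-08). The mean was 6.68 times that of control at 24 h and 24.9 times at 72 h, and it also rose from 24 to 72 h (1.78, adjusted p = 2.17e-04). Wisp1 is named Ccn4 in the annotation, at chr15:66891320-66923201.

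Wisp2 (CCN5), a related protein that lacks the C-terminal cystine knot domain of the family, was called against control at 72 h and at no earlier time. Its levels were 2.91, 3.72 and 3.91 FPKM in control, 2.34, 3.22 and 1.33 at 24 h, and 18.3, 21.7 and 23.4 at 72 h. The 24 h mice were level with control or below it, and the 72 h mice were above all others. The log2 difference at 72 h was 2.29 ± 0.12 (limma adjusted p = 4.28e-07), 6.02-fold in the means. Wisp2 is Ccn5 in the annotation, at chr2:163820861-163833146. Wisp3 stayed at or below 0.137 FPKM.

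**Figure D3:**
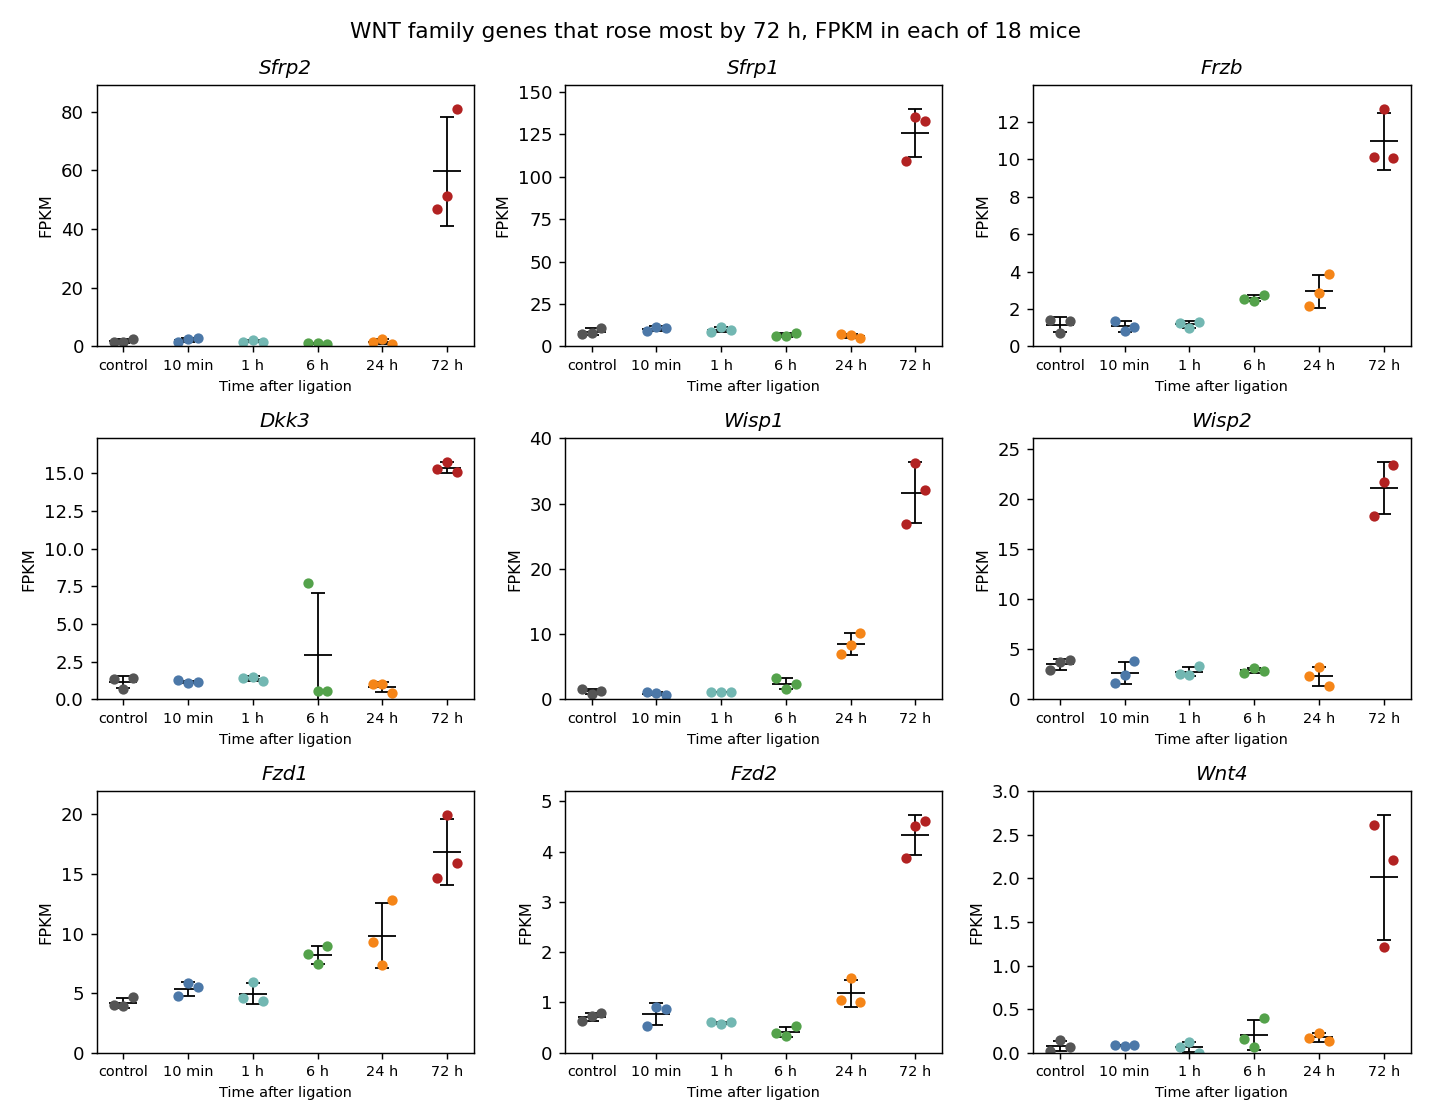
FPKM (vertical axis, from 0, on a scale of its own in each panel) in each of 18 mice by time (horizontal axis) for the 9 members that changed by at least 1 on the log2 scale and were called against control, with black bars for the mean ± SD of 3 mice. In every panel the 3 mice of 72 h lie above the control mice, which is no further support because the panels were chosen by that call. Wnt4 passed the filter only through 72 h mice. Wisp1, Fzd1 and Frzb show means above control at 6 and 24 h as well.

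Frizzled receptors changed less and in both directions. Of 8 tested, 4 were higher and 2 lower at 72 h, which lay near the 53.1% and 24.2% of all genes. Fzd1 was called higher from 6 h on. Its levels were 4.03, 3.88 and 4.65 FPKM in control and 8.25, 7.44 and 8.94 in the 6 h mice. The 24 h mice had 9.29, 7.38 and 12.8 FPKM and those of 72 h 14.6, 20.0 and 16.0. Every mouse from 6 h on was above every control mouse. The log2 difference was 0.83 ± 0.11 at 6 h (limma adjusted p = 0.00272), 1.04 ± 0.19 at 24 h (adjusted p = 0.00885) and 1.77 ± 0.12 at 72 h (adjusted p = 1.93e-06), with a mean at 72 h 4.03 times that of control. The difference at 6 h was 0.82 (adjusted p = 0.00545) without the first 6 h mouse, and at 24 h it was 0.84 (adjusted p = 0.00355) without the third 24 h mouse. Fzd1 is at chr5:4753839-4758035.

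Fzd2, often studied as a receptor of WNT5A, was at 0.626, 0.732 and 0.783 FPKM in control and at 0.383, 0.328 and 0.527 in the 6 h mice. It reached 1.04, 1.49 and 1.00 FPKM in the 24 h mice and 3.87, 4.51 and 4.60 in those of 72 h. The 6 h mice were below all control mice and the later groups above them. At 72 h it rose by 1.63 ± 0.09 (limma adjusted p = 7.33e-07), 6.06-fold in the means. Its lower level at 6 h was not called (-0.28, adjusted p = 0.0537), nor was the level at 24 h against control (0.34, adjusted p = 0.0593). The latter was called without the third 24 h mouse (0.40, adjusted p = 0.0402) and in a fit of all 18 mice (0.34, adjusted p = 0.0169). The lower level at 6 h was called without the third 6 h mouse (-0.34, adjusted p = 0.036). It was also called with no filter (-0.28, adjusted p = 0.0425) and under quantile normalization (-0.34, adjusted p = 0.0287). The step from 6 to 24 h was called with all mice (0.62, adjusted p = 0.0284) and not without the first 6 h mouse (0.61, adjusted p = 0.0839). Fzd2 is at chr11:102604396-102608058.

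Fzd7 and Fzd5 also rose at 72 h, by 0.95 ± 0.10 (limma adjusted p = 2.74e-05) and 0.88 ± 0.10 (adjusted p = 5.78e-05). Fzd7 moved from 2.90 to 3.51 FPKM in control to 6.58 to 7.89 at 72 h, and Fzd5 from 1.52 to 1.93 to 3.67 to 4.55. Fzd4, the receptor for norrin in endothelial cells, fell by 0.68 ± 0.11 (adjusted p = 5.6e-04), from 8.49 to 10.3 FPKM in control to 4.94 to 6.62. Fzd6 fell by 0.30 ± 0.08 (adjusted p = 0.00736), with 6.92 to 7.20 FPKM in control and 5.08 to 5.96 at 72 h. The 72 h and control mice did not overlap in any of these 4 genes, which were named here because they were called. The share of all genes without overlap is not given, so this is not read as a trait of the 4. Fzd8 and Fzd9 were not called against control at any time. At 72 h their log2 differences were 0.11 (limma adjusted p = 0.193) and -0.23 (adjusted p = 0.0691), and both were called lower under quantile normalization (-0.34 and -0.77). Fzd9 was also called lower under median-of-ratios scaling (-0.37) and without the second control mouse (-0.32). Fzd8 differed by 0.42 at 6 h (adjusted p = 0.102), and was called higher there in a fit of all 18 mice (0.0348) and without the third 6 h mouse (0.56, adjusted p = 0.0459). Fzd3 reached 0.878 and Fzd10 0.0571 FPKM at most and were not tested.

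The co-receptors had the highest FPKM of the tested receptors in control and changed little. Lrp6 ranged from 19.8 to 22.8 FPKM in control and from 28.6 to 32.8 at 72 h, without overlap, a rise of 0.50 ± 0.08 on the log2 scale (limma adjusted p = 3.84e-04). Lrp5 went from 14.3 to 15.6 FPKM in control to 14.0 to 15.1 at 72 h. Its log2 difference of -0.04 at 72 h was not called (adjusted p = 0.639), while it was called lower at 72 h under median-of-ratios scaling (-0.33) and quantile normalization (-0.42). At 24 h Lrp5 was at 11.7 to 13.4 FPKM, below all control mice, and was not called (-0.25, limma adjusted p = 0.0616). It was called lower at 24 h under median-of-ratios scaling (-0.39), quantile normalization (-0.43), in a fit of all 18 mice (-0.25) and without the first 24 h mouse (-0.30).

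Ligands were low, with 6 of 19 tested. Their called changes against control were under 1 in size on the log2 scale, except for that of Wnt4. Wnt4, known for its role in kidney and gonad development, was at 0.0236, 0.145 and 0.0639 FPKM in control and at 2.61, 1.22 and 2.21 at 72 h. No earlier mouse exceeded 0.399 FPKM. The rise was 1.45 ± 0.17 on the log2 scale (limma adjusted p = 6.18e-05), and the ratio of 26.0 between the means rests on control values near 0. Wnt4 and Wnt9b passed the filter only through 72 h mice (3 and 1 of them), where they were highest. Their p-values at 72 h are therefore no support for a rise. Wnt4 lies at chr4:137277489-137299726. Wnt9b rose by 0.41 ± 0.15 (adjusted p = 0.0323), with 0.345 to 1.07 FPKM at 72 h against 0.232 to 0.276 in control, and Wnt5b by 0.25 ± 0.09 (adjusted p = 0.0319), from 1.26 to 1.60 FPKM to 1.85 to 2.08. Both of these small rises lost their call under median-of-ratios scaling and turned negative under quantile normalization, at -0.10 for Wnt9b and -0.30 for Wnt5b. Both also lost it without the first or the third 72 h mouse, Wnt9b without any 1 control mouse and Wnt5b without the third, with adjusted p of up to 0.477 and 0.607 over all alternatives. At 6 h Wnt9b was not called with all mice (0.21, adjusted p = 0.183) and was without the first 6 h mouse (0.31, adjusted p = 0.0351). At 24 h it was not called with all mice (0.15, adjusted p = 0.492) and was without the third 24 h mouse (0.32, adjusted p = 0.0395).

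Wnt5a, the ligand best known for signalling without beta-catenin, was lower from 6 h on. It ranged from 5.34 to 5.73 FPKM in control, from 2.24 to 4.60 at 6 h, from 2.40 to 4.13 at 24 h and from 3.96 to 4.60 at 72 h, so each of these groups lay below all control mice. The log2 difference was -0.74 ± 0.21 at 6 h (limma adjusted p = 0.0377), -0.64 ± 0.16 at 24 h (adjusted p = 0.0208) and -0.30 ± 0.08 at 72 h (adjusted p = 0.00819). The call at 6 h was lost without the first 6 h mouse (-0.61, adjusted p = 0.0925), without the second, or without any 1 control mouse. At 24 h it was lost without any 1 control mouse (adjusted p of up to 0.0789). The call at 72 h was lost in a fit of all 18 mice (adjusted p = 0.16).

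Wnt11, a ligand of cardiac development, was called lower than control at 24 h and at no other time. Its range was 3.42 to 4.30 FPKM in control, 4.44 to 6.51 at 6 h, 1.88 to 2.19 at 24 h and 3.99 to 4.84 at 72 h. The 24 h mice were below all other mice. They differed from control by -0.73 ± 0.11 (limma adjusted p = 0.0064) and from 6 h by -1.11 ± 0.15 (adjusted p = 0.0139), and the 72 h mice were higher than those of 24 h by 0.84 ± 0.11 (adjusted p = 0.0011). Against control the 72 h mice differed by 0.11, which was not called, and under quantile normalization by -0.42, which was. The 6 h mice differed from control by 0.37 (limma adjusted p = 0.0899, not called). They were called higher in a fit of all 18 mice (adjusted p = 0.044) and without the third 6 h mouse (0.50, adjusted p = 0.031). Wnt9a was higher at 24 h, by 0.37 ± 0.10 (adjusted p = 0.0324), with 4.89 to 5.86 FPKM against 3.65 to 4.18 in control, a call lost under 9 of 15 alternatives, among them each control mouse and the first or the second 24 h mouse left out (adjusted p of up to 0.343).

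**Figure D4:**
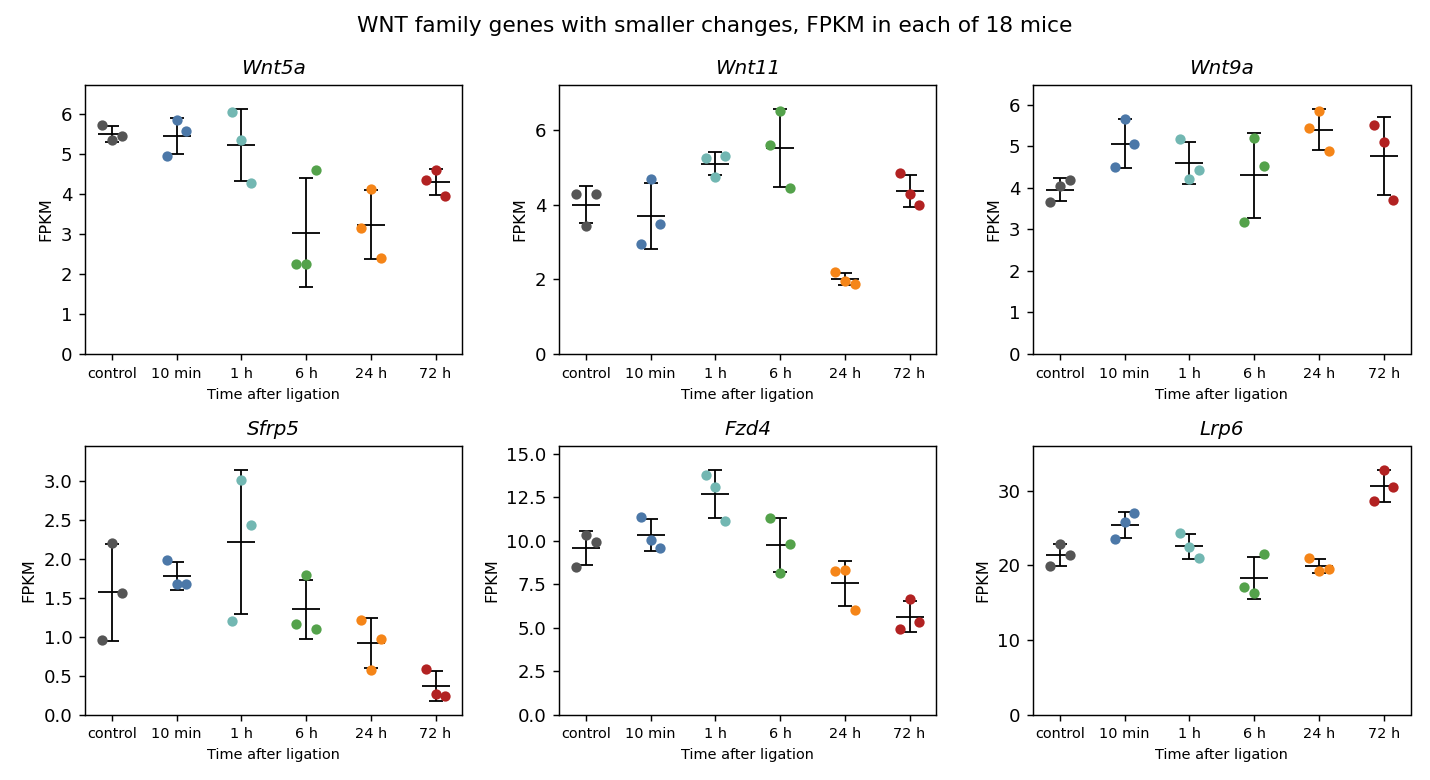
FPKM (vertical axis, from 0, on a scale of its own in each panel) of Wnt5a, Wnt11, Wnt9a, Sfrp5, Fzd4 and Lrp6 in each of 18 mice by time (horizontal axis), with black bars for the mean ± SD of 3 mice. Wnt5a lies below control from 6 h on, Wnt11 dips to 1.88 to 2.19 FPKM at 24 h, Sfrp5 and Fzd4 fall at 72 h, and Lrp6 reaches 28.6 to 32.8.

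The remaining 13 ligands stayed below the filter. Their highest values in any mouse were 0.693 FPKM for Wnt2b, 0.595 for Wnt10b, 0.54 for Wnt7a, 0.275 for Wnt2, 0.273 for Wnt6, 0.155 for Wnt16 and 0.139 for Wnt1. The classical beta-catenin ligands Wnt3 and Wnt3a reached 0.0125 and 0.0116, and Wnt7b 0.0644, Wnt10a 0.0381, Wnt8b 0.0319 and Wnt8a 0.0144 FPKM. Wnt7a was listed at 0 in all 3 control mice and had a mean of 0.340 at 72 h.

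Of the consecutive steps, 24 h was compared with 6 h and 72 h with 24 h. From 6 to 24 h 2 members rose (Wisp1 and Fzd2) and 1 fell (Wnt11), beside 12.5% and 1.94% of all genes. All 3 calls were lost without the second or the third 6 h mouse or the second 24 h mouse, with an adjusted p of up to 0.0737 for Wisp1, 0.105 for Fzd2 and 0.0682 for Wnt11. They were also lost under the replicate block, and that of Fzd2 under median-of-ratios scaling and quantile normalization. From 24 to 72 h 13 members rose and 1 fell, beside 29.7% and 13.5% of all genes. The 13 included Wnt4, which passed the filter only through 72 h mice, so that its rise is no support for the count. The others were Sfrp1, Sfrp2, Frzb, Dkk3, Wisp1, Wisp2, Wnt11, Lrp6, Fzd1, Fzd2, Fzd5 and Fzd7. Of these, Fzd7 lost its call without any 1 of the mice except the third 24 h mouse (adjusted p of up to 0.163), and Fzd1 without the first or the second 24 h mouse or the second or the third 72 h mouse (up to 0.0797). Fzd7 also lost its call with no filter, under median-of-ratios scaling, quantile normalization and the replicate block. Sfrp5, which fell, lost its call without the first or the third 24 h mouse or the second or the third 72 h mouse (up to 0.152, and 0.0675 without the third 24 h mouse). Sfrp5 also lost its call with no filter, with equal summed FPKM and in a fit of all 18 mice. Fzd4 was not called lower at 72 h than at 24 h with all mice (-0.36, adjusted p = 0.0995) and was without the third 24 h mouse (-0.49, adjusted p = 0.0144). Comparisons of 24 h with control and of 72 h with 24 h share the 24 h mice.

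Other genes of the pathway, 62 in 8 lists, gave a mixed picture at 72 h: of 44 tested, 23 were higher and 7 lower, with a median log2 difference of 0.28 against 0.29 over all genes, of which 53.1% were higher and 24.2% lower. The same lists had 8 higher and 5 lower at 24 h (all genes 26.2% and 11.4%), and 4 higher and 8 lower at 6 h (11.6% and 16.8%). Lists of a few genes are described beside these shares, and nothing is called particular to them. Of the genes for ligand release, Wls, the carrier of WNT proteins to the cell surface, rose by 1.02 (limma adjusted p = 3.71e-06), from 6.04 to 13.3 FPKM, and Porcn, which adds the lipid, differed by 0.05 (adjusted p = 0.73). All 3 tested non-Frizzled receptors rose, with Ptk7, a polarity co-receptor, at 2.39 (5.65 to 34.0 FPKM) and Ror2 at 0.73. Ror2 passed the filter only through 1 mouse of 72 h (1.29 FPKM, at most 0.351 in mice of other groups), and Ror1 stayed below it (at most 0.646). Among other inhibitors 2 of 3 rose and 1 fell, with Tpbg, a surface protein that restrains LRP6 signalling, at 2.93 (0.522 to 10.5 FPKM) and Apcdd1 at 0.54.

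Of 4 tested genes of the R-spondin and LGR group 0 were higher and 2 lower at 72 h, Lgr6 at -0.68 and Lgr4 at -0.36, and Rspo1 was tested only through 1 mouse of 72 h (1.13 FPKM). The median of the group was -0.13 against 0.29 over all genes, of which 53.1% were higher and 24.2% lower at 72 h. Planar polarity components had 1 higher and 2 lower of 4, with Prickle1 at -1.21 (17.2 to 6.87 FPKM) and Celsr1 at -0.36 (median of the list -0.25). In the destruction complex and Dishevelled list 6 of 11 rose and 1 fell, led by Axin1 (0.73) and Dvl2 (0.72), with a median of 0.29, as over all genes. Among TCF/LEF factors and co-regulators 4 of 10 rose and 0 fell, led by Tle3 (1.01), a co-repressor, and Pygo2 (0.97), a co-activator, with a median of 0.19 below that of all genes.

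The list of common target and feedback genes had 6 of 7 higher and 1 lower at 72 h, with a median log2 difference of 1.07, beside 53.1% and 24.2% of all genes and a median of 0.29. The 6 include Nkd2, which passed the filter only through the 72 h mice (at most 0.699 FPKM in mice of other groups) and so had to be higher there. Nkd2 and Dact1, intracellular antagonists of Dishevelled, rose by 1.53 ± 0.10 (0.411 to 3.09 FPKM, limma adjusted p = 1.65e-06) and 1.47 ± 0.11 (1.13 to 4.92 FPKM, adjusted p = 3.01e-06). The 1 that fell was Axin2, the target most often read as a gauge of beta-catenin signalling, by 0.87 ± 0.15 on the log2 scale (adjusted p = 8.59e-04). Axin2 was at 5.32, 5.59 and 5.68 FPKM in control and at 3.57, 2.53 and 1.85 at 72 h. All 72 h mice lay below all control mice. Myc, which has many inputs besides WNT, was higher at 6 h already, by 1.65.

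**Figure D5:**
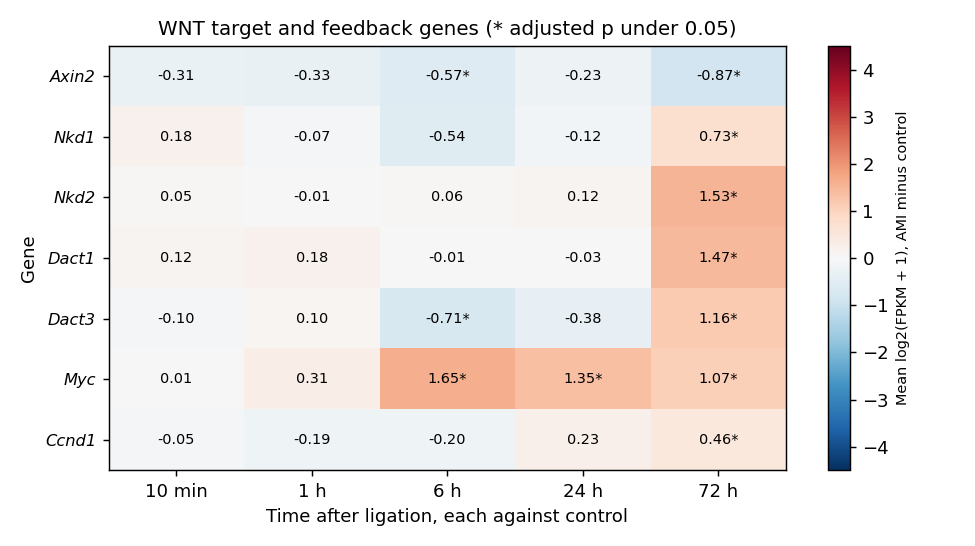
Differences in mean log2(FPKM + 1) between AMI and control mice for the 7 tested WNT target and feedback genes (rows) at 5 times (columns), red where AMI was higher and blue where lower, with an asterisk where the adjusted p was under 0.05. At 72 h Axin2 is the blue row at -0.87 among 6 red ones, up to 1.53 for Nkd2.

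The cell make-up of the tissue changed along with these genes, and in bulk tissue fewer cells of a type and less RNA per cell cannot be told apart. At 72 h all 8 fibroblast markers rose, with a summed FPKM of 407 to 473 in control and 3707 to 4686 at 72 h, as did all 8 activated fibroblast markers (85.3 to 121 and 1626 to 2085) and all 8 macrophage and monocyte markers (70.1 to 73.3 and 701 to 781). All 8 cardiomyocyte markers fell. As a background to these counts, 53.1% of the genes tested were called above control at this time, with 24.2% called below it. Mesothelial and epicardial markers were higher for 4 of 6 (summed 7.18 to 17.4 in control and 24.1 to 76.1 at 72 h), and neutrophil markers for 5 of 6. Of the endothelial markers 1 rose and 4 fell of 8, of the smooth muscle and pericyte markers 2 rose and 4 fell of 8, of the Schwann cell and neural markers 1 rose and 1 fell of 4, and the 1 T and B cell marker tested rose. At 24 h, when Wisp1 had risen and Sfrp1, Sfrp2, Dkk3 and Wisp2 had no called change, 6 of 8 activated fibroblast markers were higher and 1 lower, 3 of 8 fibroblast markers were higher and 2 lower, all 8 macrophage and monocyte markers were higher, and 5 of 8 cardiomyocyte markers were lower. The background for the 24 h counts was 26.2% of genes tested called above control, with 11.4% called below it. Counts of lists that moved only in part or in both directions are not, on their own, read as a change in a cell type. The part of cell make-up in the WNT family values was not tested.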

How the data were processed

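Sequencing reads of poly-A RNA from 18 mouse left ventricles were trimmed by the authors with cutadapt 1.18, mapped to mm10 with HISAT2 2.1.0 and quantified with StringTie 1.3.4d (versions per the submitters' processing notes), and the authors deposited 1 table of FPKM per gene symbol. The annotation and the use of strand are not given in the sources used here, so antisense or overlapping genes cannot be set apart. Spreadsheet conversion had turned 25 symbols into dates. Column names of the 1 h group and of 1 mouse of 6 h carried spelling slips and were matched by title. No columns were identical.

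FPKM were taken as deposited. Genes that reached an FPKM of 1 in any mouse (13333) were analysed as log2(FPKM + 1), which understates changes of low genes, with limma 3.58.1 in R 4.3.3 (lmFit, eBayes with a variance trend), each comparison on its own 6 mice, with two-sided p-values adjusted by the Benjamini-Hochberg method across the genes of a comparison. A gene with 1 value in all mice of a comparison was left out of it. An exact permutation test of 3 against 3 mice cannot go below 0.1 and was not used. Relative depth was estimated from the lowest FPKM.

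All 44 members were accounted for, with values per mouse where a called change against control reached 1 on the log2 scale and ranges for the others. Of each other pathway list the 2 largest called changes at 72 h were named, and Axin2, Myc, Porcn and the values per mouse of Axin2 were added after the values had been seen. Members and lists were chosen with earlier results of these data known. Alternatives were a pseudocount of 0.1, no filter, a mean FPKM of at least 1, quantile normalization, median-of-ratios scaling, equal summed FPKM, all 18 mice in 1 fit, the replicate number as a block, no variance trend and each mouse left out. The steps were tested on simulated data. Gene positions are those of GENCODE M21 on mm10, where Wisp genes are named Ccn. Plots were drawn with matplotlib 3.10.9 in Python 3.11.15.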

Additional observations from a re-analysis of the deposited data

How the results depend on the processing

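Of 44 called results of single members, 31 kept their direction and call under every alternative. Among them were the rises at 72 h of Sfrp1, Sfrp2, Frzb, Dkk3, Wisp1, Wisp2, Fzd1, Fzd2, Fzd5, Fzd7 and Lrp6 and the falls of Sfrp5, Fzd4 and Fzd6. Rises of Wnt4 are also among the 31, but Wnt4 passed the filter only through 72 h mice, so they are no support for this count. Wnt4 had no value with a mean FPKM of at least 1. At least 1 alternative removed the call of 13, and 2 rises at 72 h reversed under quantile normalization, Wnt5b to -0.30 and Wnt9b to -0.10. Median-of-ratios scaling moved the median of all genes at 72 h by -0.25 and quantile normalization by -0.41, and no filter by -0.19. At 24 h the first 2 moved it by -0.11 and -0.19, for 24 h against 6 h by -0.19 and -0.20, and for 72 h against 24 h by -0.14 and -0.22, with -0.11 for 24 h against 6 h without a filter. The share of higher among called members at 72 h was 77.8% as reported, 66.7% under median-of-ratios scaling and 57.1% under quantile normalization, while over all genes it was 68.7%, 52.5% and 42.5%. At 24 h it was 66.7% of called members as reported, 42.9% and 37.5%, while over all genes it was 69.8%, 52.2% and 43.6%.

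Quantile normalization called 2 members lower at 6 h, 5 at 24 h and 9 at 72 h, 1 higher at 24 h than at 6 h, and 5 lower at 72 h than at 24 h. Median-of-ratios scaling called 4 lower at 24 h, 1 higher and 2 lower at 24 h than at 6 h, and 2 lower at 72 h than at 24 h. All 18 mice in 1 fit called 5 higher and 2 lower at 6 h, and 2 lower at 24 h than at 6 h. At 72 h against 24 h, 0 were lower with no filter or with equal summed FPKM. No filter added 7 members to the 14 higher at 72 h, Dkk2 (0.80), Sfrp4 (0.49), Wnt7a (0.41), Wnt10b (0.41), Fzd3 (0.37), Wnt1 (0.12) and Wnt16 (0.12), and added Wif1 (-0.25) to those lower. These genes lay below 1 FPKM, and the median over the 18755 genes of that fit was 0.10. The share of all genes called in that fit is not given here. The part of depth, highest at 72 h, in these calls was not tested. Leaving out 1 mouse gave 2 to 4 members higher and 0 to 4 lower at 6 h, 2 to 6 higher and 1 to 3 lower at 24 h, 0 to 2 higher and 0 to 1 lower at 24 h against 6 h, and 0 to 1 lower at 72 h against 24 h. The extremes at 6 h of 4 and 4 came without the third 6 h mouse. At 24 h 2 were higher without any 1 control mouse. For 24 h against 6 h, 0 were called without the second or the third 6 h mouse or the second 24 h mouse. The cause was not tested.

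Replicate numbers did not pair the mice: same-number correlations ran from -0.327 to 0.415, in 0 of 7 comparisons were all 3 over 0.1, and 7 of 21 mice matched best with their own number. With the replicate block 3 members were higher at 6 h (2 as reported, Wisp1 added) and 3 at 24 h (4 as reported), 0 members were higher and 0 lower at 24 h than at 6 h, and 13 were higher at 72 h than in control. Depth limits the 21 members below 1 FPKM, where a few fragments set a value.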
